A study of Mus musculus with 39 samples.

Results

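Astrocytes of mice that had come out of chronic social defeat as susceptible or as resilient were compared within the tissue labelled PFC, which is read here as prefrontal cortex. The comparison took every library whose title names that tissue and either outcome, 11 of the 39 libraries in the series. There were 6 libraries from susceptible mice and 5 from resilient mice, and 6 PFC libraries from control mice stood beside them. No genotype or drug is named for any group, and the labels do not say how control mice were handled. In social defeat a male mouse is repeatedly attacked by an aggressor and is afterwards classed by whether it avoids other mice (susceptible) or still approaches them (resilient). All mice were male, and the sources used here give neither their age nor their strain. Per the labels' protocols, the cells were isolated with magnetic beads by ACSA-2, the surface antigen that astrocytes carry on a sodium pump subunit made by Atp1b2, and total RNA went into a picogram-input kit that keeps strand and does not select polyadenylated RNA. The protocol text names nucleus accumbens (NAc) punches for every library, so the source of the PFC libraries rests on the tissue label. The labels give each library a mouse number, which equals its sample number. Beyond that nothing says that the libraries come from separate mice or whether mice were pooled, so p-values measure the spread between libraries, which may be partly technical.

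Astrocytes clear glutamate and potassium from around synapses, pass metabolites between capillaries and neurons, and wrap the brain's vessels with endfeet. Next to those endfeet lie the contractile cells of the vessel wall: smooth muscle cells around arterioles, which hold actin and myosin of the muscle type, and pericytes along capillaries, which hold little of either. In depression research, loss of astrocyte glutamate transporters and gap-junction proteins from frontal cortex is a recurrent observation, and the resilient outcome in mice is studied as a state of its own and not merely as a lack of damage.

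The libraries differed far more with their sample numbers than with the outcome. Total counts in genes ran from 1222948 to 20332497 over the 11 libraries. The counts cover whole gene bodies, introns included, so the cover of receptor genes that are mostly silent in brain (1479 olfactory, vomeronasal and trace-amine receptor genes) was used as a background and expressed as a percent of the cover that evenly spread counts would give. It averaged 46.8% ± 18.1 in susceptible mice (SD, n = 6), against 47.3% ± 23.8 in resilient mice (SD, n = 5) and 50.5% ± 17.8 in control mice (SD, n = 6). An exact two-sided permutation test over all 462 splits of the susceptible and resilient libraries gave p = 0.963 for the background, p = 0.855 for total counts, p = 0.558 for the share of mitochondrial counts and p = 0.569 for the share of the 100 most abundant genes. Adjusted over these 4 measures, each p was 0.963. Within each outcome, however, the libraries with sample numbers up to 11, which are replicates 1 and 2, had a background between 13.4% and 43.6%, and all later ones lay between 46.1% and 71.5%. The first principal component of the genes above background held 50.9% of the variance and set those early-numbered libraries apart from the later ones in all 3 conditions. The second held 15.2% and set apart susceptible replicate 6 and resilient replicate 3, the shallowest libraries at 1222948 and 1603943 counts. The labels give no date or batch for the sample numbers.

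**Figure D1:**
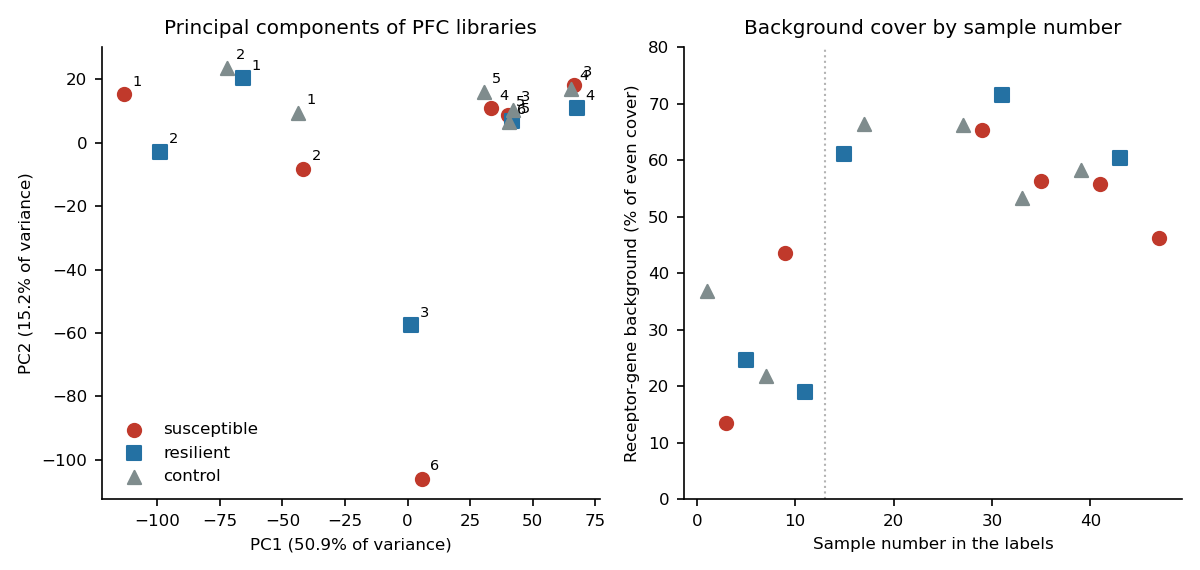
Left: the first and second principal components (share of variance on the axes) of normalised log2 counts of genes above background in the 17 PFC libraries, with the replicate number beside each point. Right: receptor-gene background, in percent of even cover, against the sample number in the labels; the dotted line separates sample numbers up to 11, where the libraries reach at most 43.6%, from later ones, which start at 46.1%.

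The defining genes of astrocytes were present. All 26 astrocyte identity genes lay above background, meaning a mean FPKM (counts scaled to gene span and library size) at least 2 times that of the receptor genes. On this scale per length Atp1b2 stood 147 times above background, the glutamate transporter genes Slc1a2 and Slc1a3 stood 72.9 and 32.6 times above it, and the gap-junction gene Gja1 stood 31.4 times above it. Genes of other cells were detected too: the synaptic gene Snap25 stood 6.58 times above background and the pericyte receptor gene Pdgfrb stood 9.36 times above it. Of the microglial markers 11 of 18 were above background. Of the cortical excitatory neuron markers 11 of 12 were above background, with Slc17a7, the cortical vesicular glutamate transporter, at 14.4 times, while 4 of 12 striatal projection neuron markers were, with Drd1, a dopamine receptor of striatal neurons, at 1.28 times.

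No gene passed the test between susceptible and resilient mice. With edgeR's quasi-likelihood test and Benjamini-Hochberg adjustment, 0 of 32167 genes tested were called at an adjusted p under 0.05 (0%), and the smallest adjusted p was 1.00. DESeq2 called 0 genes too (657 at an unadjusted p under 0.05, 249 higher and 408 lower), as did limma-voom (2178, 1130 higher and 1048 lower). With edgeR, at an unadjusted p under 0.05 there were 184 genes (0.572%), 109 of them higher (0.339%) and 75 lower (0.233%) in susceptible mice. About 1608 would be there if no gene changed and p-values were evenly spread. Small p-values were far fewer than that, so 0 calls do not show that the groups are alike. Neither direction prevailed in all fits, since without susceptible replicate 1 there were 338 higher and 440 lower. Among the 12256 genes above background there were 82 (0.669%), 60 higher (0.490%) and 22 lower (0.180%). The size of the differences was small beside the spread: among genes above background the median absolute difference between the group means was 0.16 on the log2 scale, the median SD within groups was 0.67, and for 96.4% of genes the difference was below 1 SD. The median standard error of a log2 fold change was 0.36, so differences of the median size were not detectable with this number of libraries. Early-numbered and later libraries differed by a median of 0.84.

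**Figure D2:**
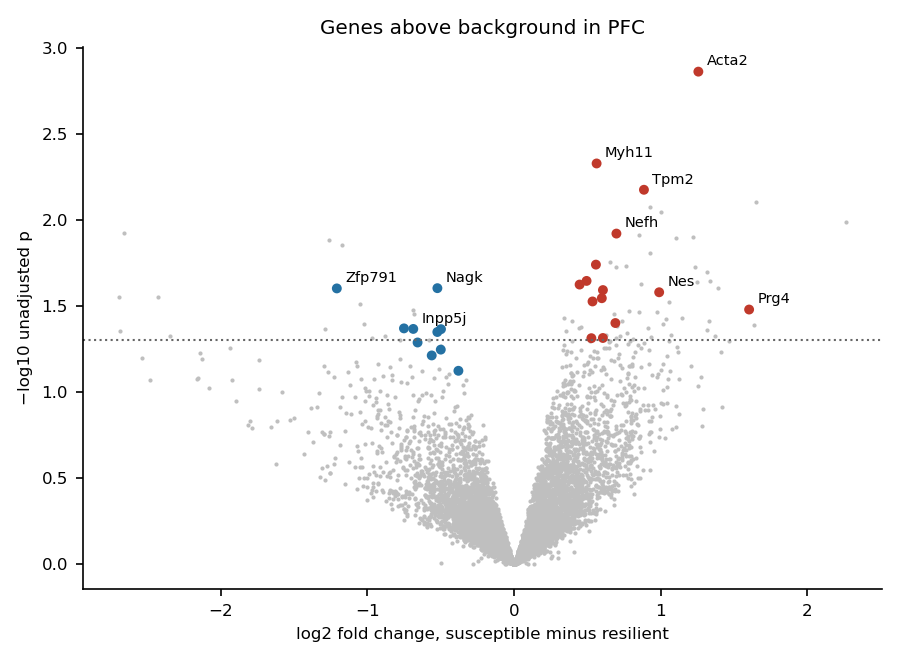
Each point is a gene above background in PFC. The horizontal axis gives the log2 fold change of susceptible minus resilient mice and the vertical axis gives −log10 of the unadjusted p from edgeR's quasi-likelihood test, with the dotted line at 0.05. Coloured points are the 25 genes named by the rule; Acta2 has the smallest p among them, and 0 of the 12256 genes passed the adjustment.

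The 3 smallest p among the genes eligible for naming belonged to Acta2, Myh11 and Tpm2, genes of contractile vessel-wall cells, and all 3 had higher values in susceptible mice, though none passed the adjustment. Genes were eligible when they lay above background with a mean log2 count scaled to library size above 3 and an annotated symbol. Acta2, Myh11 and Tpm2 lay between 2 and 4 times background, so part of their counts may be background cover. Acta2, smooth muscle alpha actin and the main actin of arteriolar smooth muscle, lies at chr19:34241090-34255590 on the minus strand (mm10). Its normalised counts in susceptible mice ran from 17.3 over a median of 21.8 to 69.7 CPM (counts scaled to library size), against 12.3, 17.7, 9.49, 11.2 and 10.9 CPM in resilient mice. Susceptible replicate 1 stood far above the others, and the groups overlapped only through resilient replicate 2. Control mice averaged 13.5 ± 3.74 CPM (SD, n = 6), close to the resilient mean of 12.3 ± 3.16 CPM and below the susceptible mean of 29.5 ± 19.9 CPM. The log2 fold change was 1.26 ± 0.34 (SE), with an unadjusted p of 0.00138 and an edgeR adjusted p of 1.00.

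Myh11, the smooth muscle myosin heavy chain (chr16:14194535-14291372), came next. It ran from 78.4 over a median of 106 to 125 CPM in susceptible mice, against 60.6, 60.4, 50.0, 82.8 and 88.4 CPM in resilient mice. Most susceptible libraries lay above every resilient one, and susceptible replicates 2 and 6 lay within the resilient range. The log2 fold change of Myh11 was 0.56 ± 0.18 (unadjusted p = 0.00470), and control mice averaged 78.9 ± 4.27 CPM.

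Tpm2, a tropomyosin of muscle-type filaments (chr4:43514711-43523765), ran from 8.80 over a median of 10.8 to 23.3 CPM in susceptible mice, against 6.68, 8.95, 4.43, 6.13 and 7.37 CPM in resilient mice. Only susceptible replicate 2 lay below the highest resilient library. Its log2 fold change was 0.89 ± 0.29 (unadjusted p = 0.00668). Tagln, the actin-binding protein transgelin of smooth muscle, lay just under the background limit at 1.94 times background. It ran from 3.29 over a median of 5.65 to 10.9 CPM in susceptible mice, against 3.66, 3.58, 3.16, 4.30 and 2.68 CPM in resilient mice, with a log2 fold change of 0.85 ± 0.29 (unadjusted p = 0.00878).

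Another pair of muscle-type genes were among the 5 with the largest fold changes that the rule adds on the higher side. Des encodes desmin, the intermediate filament of muscle, and differed by a log2 fold change of 0.69 ± 0.31, with 9.83 ± 3.94 CPM in susceptible and 6.07 ± 1.56 CPM in resilient mice. Synpo2l encodes an actin-associated protein of striated muscle and differed by 0.61 ± 0.29, with 11.5 ± 3.22 CPM in susceptible and 7.65 ± 2.85 CPM in resilient mice. Cnn1, calponin of smooth muscle, was at 0.37 ± 0.44.

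Of the 12 members of the pericyte and smooth muscle list 3 had an unadjusted p under 0.05 (Acta2, Myh11 and Tagln), and 7 were higher and 5 lower, with a median log2 fold change of 0.02, against 0.00 over all genes tested. Leaving out 1 library moved that median between −0.16 (without susceptible replicate 2) and 0.49 (without resilient replicate 2). Among the pericyte genes, the receptor gene Pdgfrb differed by 0.05, or between −0.18 and 0.48 without the same libraries, the potassium channel subunit gene Abcc9 by 0.01, the signalling regulator gene Rgs5 by −0.14 and the matrix gene Vtn by −0.08. The summed level of the list ran from 444 over a median of 605 to 1602 CPM in susceptible mice, and from 436 over a median of 505 to 1667 CPM in resilient mice. In bulk libraries a difference in the number of such cells and one in their RNA per cell cannot be told apart.

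Acta2, Myh11 and Tpm2 were picked by their p over the same libraries, so agreement within parts of these libraries is no separate support. They kept their direction inside both sets of sample numbers, while Cnn1 did not in the means of log2 CPM. From these means, Acta2 differed by 1.39 between susceptible and resilient mice among the early-numbered libraries (2 of each) and by 1.01 among the later ones (4 and 3). Tpm2 differed by 0.88 and 0.87 in the same order, and Myh11 by 0.71 and 0.49. Des and Synpo2l differed less among the later libraries, Des by 1.18 and 0.30 and Synpo2l by 0.99 and 0.33. Cnn1 differed by 0.59 among the early-numbered libraries and by −0.78 among the later ones, where susceptible replicate 6 had a count of 0. A fit without the early-numbered libraries of all conditions was chosen after the data were seen. In it Acta2 had a log2 fold change of 0.95 ± 0.19 (unadjusted p = 8.6e-05) and an edgeR adjusted p of 0.983, and Cnn1 was at 0.36 ± 0.34. Without susceptible replicate 1, Acta2 was at 0.79, Tpm2 at 0.61 and Tagln at 0.63.

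**Figure D3:**
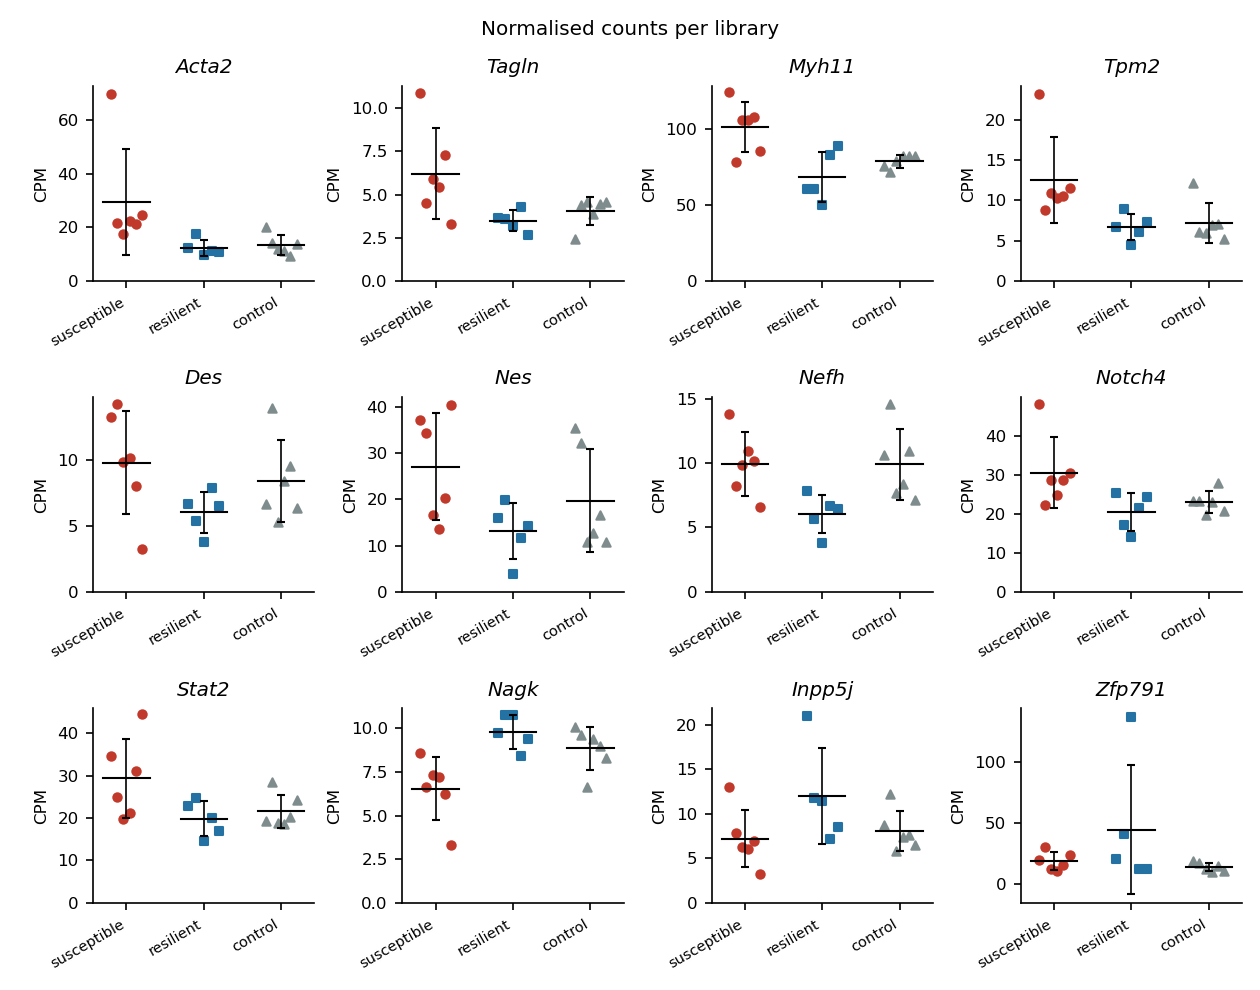
Normalised counts (CPM, linear axes) of 12 genes in susceptible, resilient and control PFC libraries. Each point is a library in order of replicate number, the long bar is the mean and the error bar the SD; Acta2, Tagln, Myh11 and Tpm2 lie higher in susceptible libraries with some overlap, and the resilient mean of Zfp791 rests on 1 library at 137 CPM.

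Other genes of vessels and of the cell skeleton were among the 10 smallest p on the higher side. Nes encodes nestin, an intermediate filament of progenitors, reactive astrocytes and vessel cells. It ran from 13.7 over a median of 27.3 to 40.3 CPM in susceptible mice, against 15.9, 20.0, 3.8, 11.6 and 14.2 CPM in resilient mice, a log2 fold change of 0.99 ± 0.41. The Nes values split in susceptible mice, with 4 libraries above every resilient one and the other 2 inside the resilient range. Notch4, a Notch receptor of endothelium, differed by 0.56 ± 0.22, with 30.5 ± 9.14 CPM in susceptible and 20.5 ± 4.84 CPM in resilient mice. Lama5, a laminin chain of vascular basement membrane, differed by 0.45 ± 0.18, with 43.3 ± 7.16 CPM in susceptible and 31.4 ± 6.81 CPM in resilient mice. For Lama5 the resilient mean was drawn down by replicate 3 at 19.6 CPM, and without that library the difference was 0.33.

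Nefh, the heavy neurofilament subunit of large axons, ran from 6.58 over a median of 10.0 to 13.8 CPM in susceptible mice, against 7.80, 5.63, 3.8, 6.64 and 6.43 CPM in resilient mice. The mean was 9.93 ± 2.47 CPM in susceptible, 6.06 ± 1.48 CPM in resilient and 9.89 ± 2.78 CPM in control mice, so the resilient mean lay below both others. The log2 fold change of Nefh was 0.70 ± 0.25 (unadjusted p = 0.0120). The remaining genes on the higher side were Gtf2h3, a subunit of the general transcription and repair factor TFIIH, at 0.49 ± 0.20, Coq6, an enzyme of coenzyme Q synthesis, at 0.61 ± 0.25, and Rcn3, a calcium-binding protein of the secretory pathway, at 0.60 ± 0.25. Robo3, an axon guidance receptor, was at 0.53 ± 0.25, and Stat2, which carries type I interferon signals to the nucleus, was at 0.53 ± 0.23. In the means of log2 CPM, Robo3 differed by 1.22 among the early-numbered libraries and by 0.09 among the later ones. Rcn3 differed by 1.24 and 0.30 in the same order. Prg4, the lubricin of joints, had the largest fold change of the named genes on the higher side at 1.6 ± 0.70, and this came from susceptible replicate 1 alone, at 153 CPM where the other 5 susceptible libraries lay between 3.29 and 13.7 CPM. Without that library Prg4 was at −0.14.

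On the lower side Nagk kept most of its difference whichever library was left out, and most of the rest turned on 1 resilient library. Nagk, the kinase that salvages N-acetylglucosamine, ran from 3.29 over a median of 6.92 to 8.58 CPM in susceptible mice, against 9.71, 10.7, 10.8, 8.43 and 9.38 CPM in resilient mice. Only susceptible replicate 1 reached into the resilient range. Its log2 fold change was −0.52 ± 0.22 (unadjusted p = 0.0249), and control mice averaged 8.84 ± 1.22 CPM. Leaving out 1 library gave −0.60 to −0.44 for Nagk. Inpp5j, an inositol polyphosphate 5-phosphatase, ran from 3.29 over a median of 6.6 to 13 CPM in susceptible mice, against 21, 11.8, 11.4, 7.2 and 8.58 CPM in resilient mice. For Inpp5j the highest library of each group was replicate 1, and the log2 fold change was −0.69 ± 0.32, or −0.36 without resilient replicate 1.

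Resilient replicate 3 held the highest value of 7 of the other 8 named genes on the lower side. Zfp791, a zinc finger gene, ran from 11.2 over a median of 18.1 to 30.7 CPM in susceptible mice, against 20.7, 40.9, 137, 13 and 13 CPM in resilient mice. Its log2 fold change of −1.21 ± 0.50 became −0.20 without that library. Trim30a, a regulator of innate immune signalling, was at 178 CPM in resilient replicate 3 and had a log2 fold change of −0.75 ± 0.35, or −0.40 without that library. Vwa3a was at −0.52, or −0.10 without it, and Dcaf10, a substrate receptor of a ubiquitin ligase, was at −0.66, or −0.16 without it. Zfyve26, a lysosome-associated zinc finger protein, was at −0.56, or −0.16 without it, and Pabpc4, a poly(A)-binding protein, was at −0.38, or −0.12 without it. Ppil3, a peptidyl-prolyl isomerase, was at −0.50 ± 0.23 with 19 CPM in resilient replicate 3 and 16.4 CPM in resilient replicate 2. Zfp189, a zinc finger gene, was at −0.50 ± 0.25 and had its highest value of 17.9 CPM in resilient replicate 2. Of these 10 genes, Dcaf10, Zfp189, Zfyve26 and Pabpc4 were taken by the rule at an unadjusted p above 0.05.

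Complete separation of the groups was rare. The 6 susceptible and 5 resilient libraries did not overlap in 16 of all genes tested (0.0497%), 9 of them higher (0.028%) and 7 lower (0.0218%). Above background there were 6 (0.0490%), 5 higher (0.0408%) and 1 lower (0.00816%). Those 6 were picked out after their values were seen. They were Zdhhc12, a palmitoyltransferase, at a log2 fold change of 0.93 ± 0.32, Rilp, a lysosomal Rab effector, at 1.10 ± 0.40, Scamp2, a secretory carrier membrane protein, at 0.34 ± 0.15, Ralb, a small GTPase, at 0.36 ± 0.17, Spag8 at 0.66 ± 0.50 and the receptor pseudogene Olfr1397-ps1 at −1.18 ± 0.44. Ralb was at 35.9 to 52.6 CPM in susceptible and 27.2 to 34.3 CPM in resilient mice, Scamp2 was at 25.9 to 34.5 CPM in susceptible and 20.3 to 25.3 CPM in resilient mice, and the other 4 had means under 6 CPM in both groups.

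Astrocyte identity genes did not pass the test in either direction. Of the 26 identity genes 14 were higher and 12 lower in susceptible mice, none with an unadjusted p under 0.05, and the log2 fold changes ran from −0.18 for Gpr37l1 and Aldoc to 0.22 for Gfap, with a median of 0.01. Slc1a2, the main glutamate transporter of forebrain astrocytes, averaged 4494 ± 2863 CPM in susceptible, 4565 ± 3771 CPM in resilient and 2592 ± 1184 CPM in control mice. Slc1a3, its companion transporter, averaged 1167 ± 774 CPM in susceptible and 1174 ± 1084 CPM in resilient mice, a log2 fold change of −0.01 ± 0.58. The ACSA-2 gene Atp1b2 averaged 417 ± 299 CPM in susceptible, 460 ± 399 CPM in resilient and 249 ± 139 CPM in control mice, at −0.14 ± 0.60. Gja1, the gap-junction protein connexin 43, was at −0.11 ± 0.62 and Aqp4, the water channel of endfeet, at 0.01 ± 0.65. The standard errors of these 5 genes ran from 0.54 to 0.65, against the median of 0.36 over genes above background, and their levels moved with the sample numbers, whose part in this was not tested. The mean log2 CPM of the identity genes was 8.74 and 8.22 in the early-numbered susceptible libraries and 7.72 and 9.09 in the early-numbered resilient ones, while the later libraries ran from 5.60 to 8.03 in susceptible and from 5.96 to 7.37 in resilient mice.

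**Figure D4:**
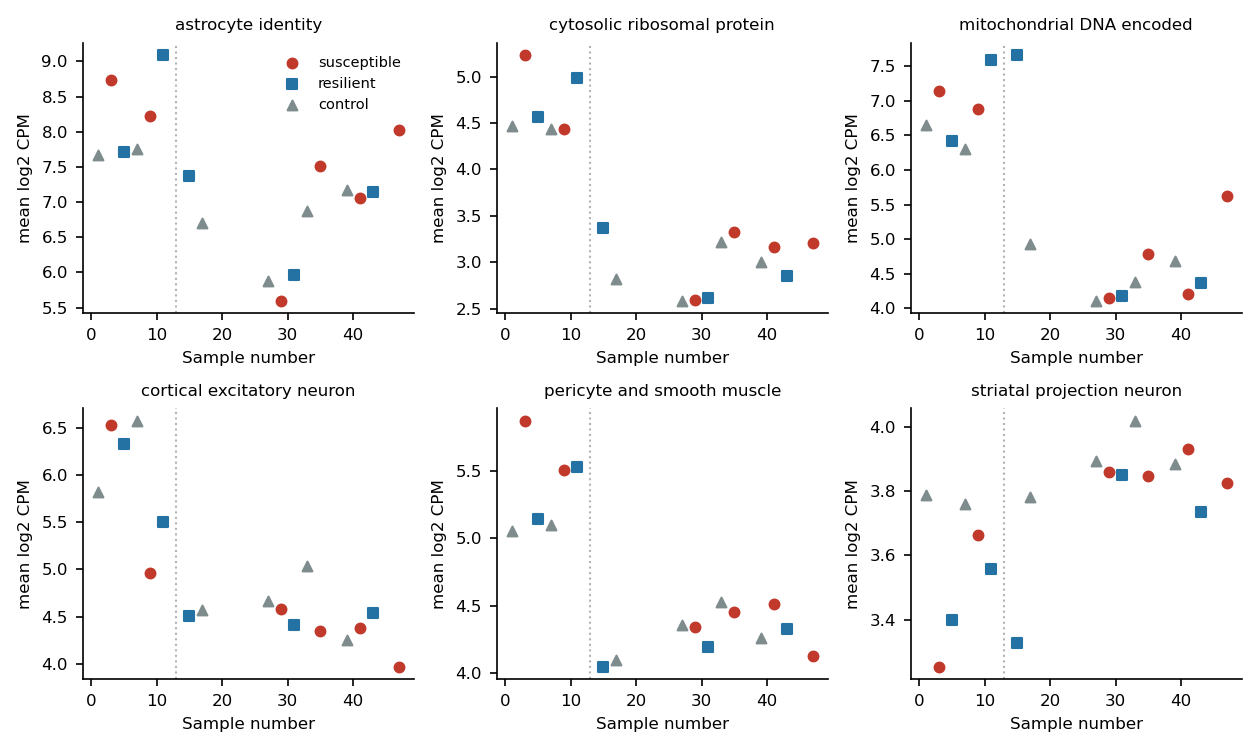
Mean log2 CPM of the members of 6 gene lists in each PFC library against the sample number in the labels, with the dotted line after the early-numbered libraries. Within each condition the astrocyte, ribosomal, cortical neuron and pericyte and smooth muscle lists lie highest in the early-numbered libraries; mitochondrial genes do too except for resilient replicate 3, striatal markers do not, and susceptible and resilient libraries overlap in each list.

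Endfoot, potassium and gap-junction genes had a median of 0.02, with 9 of 14 higher. Glutamate and GABA handling genes had a median of −0.02, with 6 of 17 higher. Receptor and calcium genes had a median of 0.01 and synapse-forming and engulfing genes one of 0.02. In the last list Thbs2, a thrombospondin that promotes synapse formation, came closest to the unadjusted threshold at 0.36 ± 0.18 (unadjusted p = 0.0550), with 20.4 CPM in susceptible and 15.9 CPM in resilient mice, and its relative Thbs1 was at 0.28 ± 0.30.

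Markers of other cells lay on either side of zero, and none of their lists held a member that passed the adjustment. Oligodendrocyte markers were lower in 17 of 20, with a median of −0.18, and the myelin genes Mog, Cldn11 and Mag were at −0.50 ± 0.38, −0.40 ± 0.40 and −0.38 ± 0.47. Their summed level ran from 1154 over a median of 1409 to 3445 CPM in susceptible mice, and from 766 over a median of 2642 to 3161 CPM in resilient mice, so the groups overlapped throughout. Pan-neuronal markers were lower in 13 of 14, with a median of −0.19, and cortical excitatory markers in 8 of 12, with a median of −0.20. Slc17a7 was at −0.50 ± 0.85, with 215 to 216 CPM in replicate 1 of both outcomes and at most 89.8 CPM in the other libraries of either. Over all genes tested the split was even, with 50.1% higher and a median of 0.00, and above background 48.5% were higher, or 61.3% on the scale of log2(FPKM + 0.5). That share was 28.7% without susceptible replicate 1 and 71.2% without resilient replicate 2. Without resilient replicate 1 the medians were 0.00 for oligodendrocyte, 0.28 for pan-neuronal and 0.26 for cortical excitatory markers.

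Markers on the other side of zero were those of microglia, higher in 14 of 18 with a median of 0.13, endothelium, higher in 9 of 12 with a median of 0.14, fibroblasts, higher in 7 of 10 with a median of 0.29, and ependyma and choroid plexus, higher in 9 of 10 with a median of 0.19. None of these 4 lists had a member with an unadjusted p under 0.05, and without susceptible replicate 1 the endothelial and fibroblast medians were −0.03 and −0.11, and without resilient replicate 2 the microglial median was −0.03. Precursors of oligodendrocytes had a median of 0.05 (8 of 12 higher), inhibitory neurons one of 0.10 (8 of 11), striatal projection neurons one of 0.13 (10 of 12) and blood cells one of 0.01 (5 of 9). In the microglial list Trem2, a lipid receptor, was at 0.56 ± 0.33. Col1a1, the fibrillar collagen that led the fibroblast list at 0.75 ± 0.46, had 78.8 CPM in susceptible replicate 1 and between 8.60 and 18.4 CPM in the other susceptible libraries, against 8.23 to 23.2 CPM in resilient mice. Summed fibroblast markers ran from 146 over a median of 187 to 432 CPM in susceptible mice, and from 152 over a median of 197 to 201 CPM in resilient mice. Susceptible replicate 1 held the highest sum of fibroblast markers and also the highest Acta2, and the part of fibroblasts in the contractile genes was not tested. Among ependymal markers only 1 of 10 lay above background. The same held for 4 of 10 fibroblast, 2 of 11 inhibitory neuron and 6 of 12 oligodendrocyte precursor markers.

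**Figure D5:**
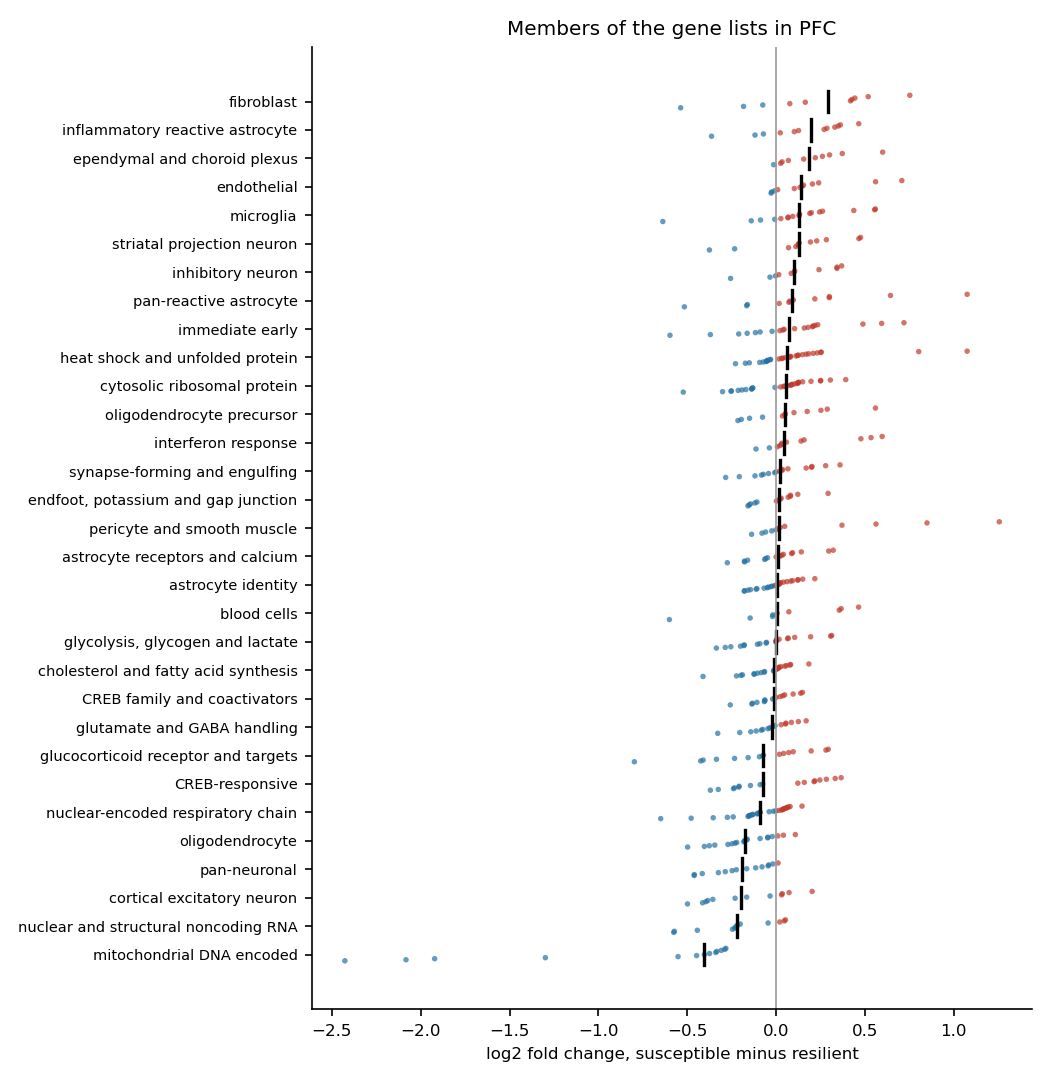
Log2 fold changes of susceptible minus resilient mice for the members of 31 gene lists, one point per gene, red when higher and blue when lower in susceptible mice, with a black bar at the median of the list. The lists are ordered by their medians, from 0.29 for fibroblast markers to −0.40 for mitochondrial genes, and Acta2 is the rightmost point of the pericyte and smooth muscle list.

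No gene of the reactive astrocyte, inflammatory or interferon lists passed the adjustment. Pan-reactive genes were higher in 9 of 12, with a median of 0.09, among them Vim, the filament protein vimentin, at 0.64 ± 0.69 and Hspb1, a small heat shock protein, at 1.08 ± 0.74. Vim was at −0.25 without susceptible replicate 1 and at 1.32 without resilient replicate 2. The genes of inflammatory reactive astrocytes were higher in 9 of 12, with a median of 0.20, or a median of −0.01 without susceptible replicate 1. Only 3 of these 12 lay above background, all of them higher. Serping1, an inhibitor of complement, was at 0.47 ± 0.29, and C3, the central complement protein, was at 0.27 ± 0.40. In the interferon list 10 of 12 were higher with a median of 0.05, and Stat2 was the only member with an unadjusted p under 0.05. Of these 12 only 5 lay above background, 3 higher and 2 lower. Stat2 ran from 19.8 over a median of 28.1 to 44.4 CPM in susceptible mice, against 22.8, 24.8, 14.6, 20.0 and 17.0 CPM in resilient mice. Of the interferon-induced genes named, Isg15 was at 0.60, Bst2 at 0.48, Ifit1 at 0.03 ± 0.37 and Usp18 at 0.14 ± 0.20. In the means of log2 CPM, Isg15 differed by 2.45 among the early-numbered libraries and by −0.74 among the later ones. Bst2 differed by 0.88 and −0.52 in the same order. The fit of counts without the early-numbered libraries did not bear out these reversals, with Isg15 at −0.02 ± 0.64 and Bst2 at 0.41 ± 0.42.

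No gene of stress-hormone or activity-dependent signalling passed the adjustment. Nr3c1, the glucocorticoid receptor, averaged 117 CPM in susceptible, 114 CPM in resilient and 99.4 CPM in control mice, and Fkbp5, a target that damps the receptor, was at −0.07 ± 0.17. Over the 16 genes of that list the median was −0.07. The transcription factor gene Creb1 averaged 59.7 CPM in susceptible, 59.5 CPM in resilient and 52.3 CPM in control mice, a log2 fold change of 0.00 ± 0.25. Its relatives Crem and Atf1 were at −0.06 ± 0.17 and −0.13 ± 0.19, the CREB family list had a median of −0.01 and CREB-responsive genes had one of −0.08. Immediate early genes were higher in 13 of 20 with a median of 0.07, and ranged from −0.60 for Egr3 to 0.72 ± 0.39 for Nr4a2, a nuclear receptor, for which control mice at 11.5 CPM were as high as susceptible mice at 11.6 CPM, against 6.46 CPM in resilient mice.

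No gene of the metabolic lists passed the adjustment. Glycolysis, glycogen and lactate genes had a median of −0.00, cholesterol and fatty acid synthesis genes had a median of −0.01, ribosomal protein genes had one of 0.06, and heat shock and unfolded protein genes had one of 0.06. Nuclear and structural noncoding RNAs had a median of −0.22, with 3 of 13 higher, or 0.06 without resilient replicate 2. Nuclear-encoded respiratory chain genes had a median of −0.09, with Ndufb9, a complex I subunit, lowest at −0.65 ± 0.48. These medians rested on single libraries: without susceptible replicate 1 they were −0.36 for glycolysis, −0.25 for cholesterol, −0.46 for ribosomal, −0.42 for heat shock and −0.42 for respiratory chain genes. Without resilient replicate 2 they were 0.40, 0.32, 0.46, 0.45 and 0.32 in the same order. The log2 fold changes of all 13 protein genes of mitochondrial DNA were below zero, with a median of −0.40. The largest was that of mt-Co3, a cytochrome oxidase subunit, which ran from 0.651 over a median of 1.72 to 6.65 CPM in susceptible mice, against 5.25, 12.3, 58.2, 0.553 and 0.670 CPM in resilient mice. Its log2 fold change was −2.43 ± 1.02 (unadjusted p = 0.0281). The highest value was again that of resilient replicate 3, without which mt-Co3 was at −0.75. The more abundant mt-Nd1, a complex I subunit, averaged 520 CPM in susceptible and 675 CPM in resilient mice, at −0.37 ± 0.62. These 13 genes share 1 molecule, and their median turned to 0.06 without resilient replicate 2.

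Differences from the control mice share the same 6 control libraries. The astrocyte identity median was 0.73 for susceptible minus control and 0.73 for resilient minus control. The groups overlapped, with a mean log2 CPM of these genes from 5.88 to 7.75 in control libraries. It ran from 5.60 to 8.74 in susceptible and from 5.96 to 9.09 in resilient libraries. Of the contractile genes, Acta2 was at 1.14 for susceptible minus control and −0.12 for resilient minus control, Tpm2 was at 0.81 and −0.07, and Myh11 was at 0.36 and −0.20, each in that order. These genes were picked by their p over the same susceptible and resilient libraries, so these values are no separate support. For Acta2 and Tpm2 the susceptible libraries include replicate 1, which stood far above the others.

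The difference between susceptible and resilient mice was also compared between PFC and NAc in 1 fit of all 39 libraries, with 8 susceptible and 7 resilient NAc libraries. Of 38171 genes 0 were called with edgeR's quasi-likelihood test (0%), and 349 had an unadjusted p under 0.05 (0.914%), while DESeq2 called 0 (726 at an unadjusted p under 0.05) and limma-voom called 0 (1537). The median difference over genes above background was −0.13. It was −0.35 without PFC susceptible replicate 1, −0.03 without PFC resilient replicate 1 and 0.01 without PFC resilient replicate 2. With background percent as a covariate it was 0.03, and with consecutive sample numbers as a block it was 0.07. The block fit took only libraries whose consecutive numbers pair within a condition. It left out PFC resilient replicate 1 and some NAc libraries, so its shift cannot be read as that of the block alone. In the fit of all 39 libraries, Acta2 had the smallest p among the candidates for naming. Its difference between the 2 log2 fold changes was 1.42 ± 0.35 (unadjusted p = 2.27e-04, adjusted p = 1.00). With the scaling of that fit, Acta2 averaged 31.0 ± 21.4 CPM in susceptible and 13 ± 3.63 CPM in resilient PFC libraries, and 11.7 ± 2.86 CPM in susceptible and 13.2 ± 2.91 CPM in resilient NAc libraries. The susceptible PFC mean includes replicate 1, which stood far above the others for Acta2. The PFC libraries in this fit are the ones in which Acta2 had already been picked by its p. Its rank here is therefore no separate support for a difference between the regions. Myh11 differed between the regions by 0.50 ± 0.21 and Tagln by 0.72 ± 0.34. The same limit holds for every gene already named within PFC. The other candidates with the smallest p were Prg4 at 1.66 ± 0.66, which rests on the 1 PFC library named above, Inpp5j at −0.86 ± 0.35, the ribosomal protein gene Rpl11 at −0.50 ± 0.21 and Pigv, an enzyme of membrane anchor synthesis, at −0.53 ± 0.22.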

How the data were processed

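RNA of ACSA-2-sorted astrocytes was sequenced in 39 libraries, and the 11 PFC libraries of susceptible and resilient mice are compared here. The authors deposited unnormalised counts for 55401 genes, with featureCounts and mm10 named per the submitters' processing notes. The sources used here give no tool version, annotation or strand setting, so overlapping and antisense genes cannot be told apart. The deposited FPKM values divide these counts by gene span, which equalled the GENCODE M21 span for 54229 of 54229 genes compared (relative tolerance 1e-06), so introns are included. Of the gene identifiers 55141 matched M21, and coordinates are those of M21. No 2 libraries held identical counts.

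Counts were tested with edgeR 4.0.16 in R 4.3.3 (trimmed-mean scaling, default count filter by group, robust quasi-likelihood fit), with the 3 PFC conditions fitted together and no covariate. CPM use that scaling, and fold changes are susceptible minus resilient on the log2 scale. P-values are two-sided and measure the spread between libraries as labelled. A gene was above background when its mean FPKM over the 17 PFC libraries was at least 2 times the receptor-gene mean of 0.369. Genes named had a log2 CPM above 3 and no predicted, pseudogene or receptor symbol: the 10 smallest p in each direction, the next 5 largest fold changes with p under 0.05, up to 4 members and the first of each list, 10 fixed genes, and 5 for the region difference. The 31 lists and this rule were chosen with earlier results of these data known. The code was checked on simulated counts. Alternatives used DESeq2 1.42.0, limma 3.58.1 and sva 3.50.0. Depth ran from 1222948 to 20332497 counts, which limits genes of low count in the shallow libraries.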

Additional observations from a re-analysis of the deposited data

Results flagged for a closer look

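Among 58 combinations that were looked at, 7 held a library far from the rest of its group, where about 1 in 20 would by chance. The combinations took the 25 genes named by p or fold change and 4 library measures in each outcome, and all 7 were of genes. Those genes were chosen for their differences between the outcomes, so the share by chance need not hold for them. In susceptible replicate 1, Acta2 was at 69.7 CPM with the other 5 susceptible libraries at 17.3 to 24.7 CPM, Tpm2 was at 23.3 CPM with the others at 8.80 to 11.5 CPM, and Prg4 was at 153 CPM with the others at 3.29 to 13.7 CPM. In susceptible replicate 6, one of the shallowest libraries, Nagk was at 3.29 CPM with the others at 6.25 to 8.58 CPM. In resilient replicate 3, the other shallow library, Vwa3a was at 157 CPM with the other 4 resilient libraries at 50.1 to 66.3 CPM, Pabpc4 was at 74.1 CPM with the others at 34.2 to 36.9 CPM, and Lama5 was at 19.6 CPM with the others at 32.0 to 36.8 CPM.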

How the results depend on the processing

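No gene was called between susceptible and resilient mice, nor for the difference between regions, under any alternative run, and the smallest adjusted p over them were 0.113 for the first (2 surrogate variables) and 0.113 for the second (only genes above background). The count of genes with an unadjusted p under 0.05, 184 in the comparison as reported, was 1133 without a count filter, 120 with a stricter one, 657 with DESeq2, 2178 with limma-voom, 123 with only genes above background, 41 at 4 times background, 1198 with background percent as a covariate, 582 and 612 on log2(FPKM + 0.5) and log2(FPKM + 0.1), 278 after subtracting background, 58 from the 11 libraries alone, 696 from all 39 libraries, 310 with sample number as a covariate and 1568 with 2 surrogate variables. Leaving out 1 library gave 145 to 778, with 778 without susceptible replicate 1, 605 without resilient replicate 4 and 376 without resilient replicate 2. These fits tested from 3210 genes at 4 times background to 55096 without a count filter and with DESeq2, so their counts are not directly comparable. If no gene changed and p-values were evenly spread, about 1608 would be there as reported, about 613 with only genes above background and about 160.5 at 4 times background. Only limma-voom exceeded its expected number, at 2178 against about 1608. Chosen after seeing the data, the fit without sample numbers up to 11 gave 1724. For the region difference, 349 as reported, it was 1134 without a filter, 159 with a stricter one, 726 with DESeq2, 1537 with limma-voom, 118 with only genes above background, 638 with background percent, 1382 without PFC susceptible replicate 1 and 1303 without PFC resilient replicate 4. A replicate block called 0 genes (502 with an unadjusted p under 0.05), as did the block with background percent (1268) and, for the regions, a block of consecutive sample numbers (365). The block for the regions took only libraries whose consecutive numbers pair within a condition. Deviations of same-numbered susceptible and resilient libraries correlated at 0.60, 0.44, −0.10, 0.58 and 0.49 over genes above background, at 0.69, 0.36, 0.11, 0.66 and 0.59 over genes with a log2 CPM above 1, and at 0.82, 0.54, 0.24, 0.75 and 0.73 over those above 3. In each set 2 of the 5 numbers correlated best with their own number. The best-matching numbers were the same in every set, and the labels do not say whether the numbers pair the libraries. The block changed no call.

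Prg4 turned to −0.091 with limma-voom and to −0.049 without sample numbers up to 11, and ran from −0.14 to 1.81 leaving out 1 library, where the negative value came without susceptible replicate 1. The difference in background percent, −0.551 as reported, was 5.53 from 60 single-copy genes of other organs and ran from −7.63 to 6.12 leaving out 1 library. The difference in total counts, 0.922 M counts, ran from −0.855 to 3.93 M counts leaving out 1 library. Acta2 stayed positive in all 35 alternatives, from 0.79 to 1.42, with a smallest adjusted p of 0.113. The astrocyte identity median turned sign in 12 of 36 and the pericyte and smooth muscle median in 9 of 36, while those of pan-neuronal and oligodendrocyte markers did in 2 and 3. Depth limits genes of a few CPM in the libraries of 1222948 and 1603943 counts.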
